A study of Mus musculus with 3 samples.

Results

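Exonic GLI3 peaks away from promoters were the peaks whose summit lay inside an exon, coding or untranslated (UTR), of a protein-coding transcript and more than 3 kb from every protein-coding transcription start site (TSS). Exons and start sites were those of the GENCODE M21 basic annotation of the mouse genome build mm10 (GRCm38). Of 16854 peaks listed on autosomes, 186 met this rule, which is 1.10% of them. Their summits fell in coding sequence at 74 peaks, in 3′ UTRs at 104 and in 5′ UTRs at 8, and together they touched 157 genes. The position of the summit chose the peaks and their enrichment did not.

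The peaks came from chromatin immunoprecipitation and sequencing (ChIP-seq) of forelimb buds at E10.5 (embryonic day), between 32 and 35 somites. The endogenous Gli3 gene of these embryos carried a FLAG epitope tag on a mixed strain background, while the genotype label of all 3 libraries read wild type. Each of 2 ChIP replicates pooled limb buds of 2 litters, and 1 input library of chromatin without immunoprecipitation, of the same age and background, served as the control. The data were a single list of 17149 peaks, deposited under ChIP replicate 1 and taken here as a joint call of both replicates, with no value per replicate, so differences carry no replicate error, and the tissue could not be checked against marker genes. The exact read depth of the libraries was unknown from the list.

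GLI3 is a zinc finger transcription factor of the Hedgehog (HH) pathway. Without HH ligand it is cut into a shorter protein that represses target genes, and in the limb bud this repressor acts mostly in the anterior part, away from the posterior source of Sonic hedgehog. GLI proteins recognise the 9-base sequence GACCACCCA. Enhancers are usually sought in introns and between genes, but a stretch of exon can also serve as binding DNA, where its sequence must at the same time encode protein or lie in the messenger RNA.

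A few sequences at the exonic summits are shown first, as examples of what counted as a match; they were picked by FDR, distance and exactness from 49 matches at 35 peaks, and no test rests on them alone. A GLI motif was a match to GACCACCCA, or to its reverse complement, with at most 1 mismatch in the window reaching 250 bp to either side of the summit. They are 1 match within 50 bp of the summit at each of 4 peaks with an FDR under 0.05, of 13 matches this close over all the peaks, and the 2 exact consensus matches at any distance in the window. Each line gives 29 bases of the plus strand of GRCm38.p6 (RefSeq assembly), 5′ to 3′, with the 9 matched bases in capitals.
Cabp1 transcript end: acaaagcaagGACCACCCTctctgtcatt
Chst10 3′ UTR: gagccctgtgGACCACACAgtaagtacag
Otof coding exon: ccacagggcaGACCACACAggaagtcctt
BC034090 3′ UTR: cctgcctgctGCCCACCCAcagctgccac
Lzts3 3′ UTR: ccctgctgagGACCACCCAgaaggagctg
Pigv coding exon: catcgagacaGACCACCCAgaagaccttc

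The Cabp1 sequence lay at chr5:115168667-115168695 and the Chst10 sequence at chr1:38867849-38867877. The Otof sequence lay at chr5:30383102-30383130 and the BC034090 sequence at chr1:155212615-155212643. The Lzts3 sequence lay at chr2:130633063-130633091 and the Pigv sequence at chr4:133665661-133665689. With positions counted from 1 at the 5′ end of the motif, consensus base first, the difference was A9T at Cabp1, A2C at BC034090, and C7A at Chst10 and at Otof. The matched bases at Cabp1 lay 11 bp from the summit, just beyond the annotated transcript end. Lzts3 and Pigv held the exact consensus, 55 and 83 bp from their summits.

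In the whole list, 42.7% of autosomal peaks had an FDR under 0.05, the q-value the authors' caller gave for ChIP over input. Of the exonic peaks away from promoters, 62 of 186 passed it, which is 33.3% (95% Wilson interval 27.0 to 40.4%), in 58 genes. In coding exons 21 of 74 passed (28.4%, interval 19.4 to 39.5%). In 3′ UTRs 38 of 104 passed (36.5%, interval 27.9 to 46.1%), and in 5′ UTRs 3 of 8 did. Intronic peaks over 3 kb from a TSS, the class nearest by position, passed at 39.2% (1211 of 3090, interval 37.5 to 40.9%). The coding share was not separable from the intronic share (two-sided Fisher's exact test, odds ratio 0.615, p = 0.0699, adjusted p = 0.166). By the same exact test neither was the 3′ UTR share (odds ratio 0.893, p = 0.611, adjusted p = 0.774), and the coding and 3′ UTR shares did not differ beyond counting error (odds ratio 0.688, adjusted p = 0.418). The 3′ UTR share was 27.3% (15 of 55) between 3 and 10 kb from a TSS and 46.9% (23 of 49) beyond 10 kb. Coding shares at these distances were 29.7 and 27.0%, and intronic shares 40.1 and 39.0%. Beyond 10 kb the 3′ UTR share was still not separable from the intronic one (Fisher's exact test, odds ratio 1.38, adjusted p = 0.44). Adjusted p-values are Benjamini-Hochberg values over 19 tests. Peaks are not replicates, and these tests and intervals describe counting error in 1 list.

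The enrichment of the exonic peaks lay in the same range as that of other distal peaks. The listed value is the log2 fold enrichment over input at the most enriched point of the peak. Its median was 2.18 in coding exons (range 1.75 to 4.10), 2.18 in 3′ UTRs (range 1.74 to 4.95) and 2.07 in 5′ UTRs (range 1.78 to 3.17). The medians were 2.19 for intronic peaks, 2.26 for peaks within 3 kb of a TSS and 2.23 over all autosomal peaks. Median peak lengths were 200 bp in coding exons and 250 bp in 3′ UTRs, against 200 bp in introns. The medians of −log10 of the smallest Poisson p-value were 8.31 and 8.29, against 9.01 in introns.

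**Figure D1:**
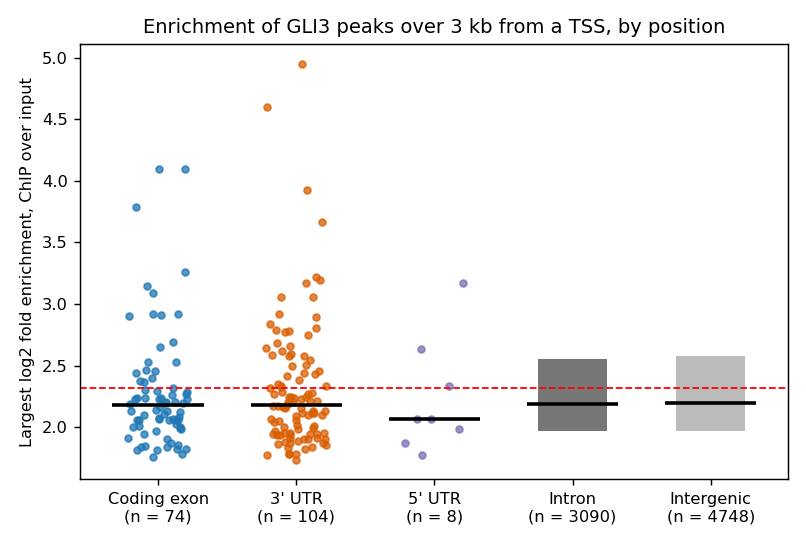
Highest log2 fold enrichment over input within the peak (y axis) for peaks over 3 kb from a protein-coding TSS, by the place of the summit (x axis). Points are single exonic peaks, grey bars span the quartiles of intronic and intergenic peaks, black lines are medians and the dashed line marks 2.31, the lowest value of any peak with an FDR under 0.05; most exonic points sit below it, with a few 3′ UTR and coding peaks far above.

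The strongest 3′ UTR peaks stood well above the median of their class. The peak in the 3′ UTR of BC034090, a gene of unknown function, ranked 25 in the whole list with a log2 fold enrichment of 4.95 and spanned chr1:155212150-155213299. Its summit lay close to the annotated transcript end, at 206 bp from it, and 72.1% of the peak lay inside exons. H13, which encodes the signal peptide peptidase, held a pair of peaks 1545 bp apart in its last exon, ranked 295 (log2 3.93) and 1827 (log2 3.06), both wholly exonic. Tbc1d16, of a family of Rab GTPase-activating proteins, followed at rank 536 with 3.66. Tenm4 (a teneurin, 3.22), Cabp1 (a calcium-binding protein, 3.19), Adam11 (of the ADAM family of membrane proteins, 3.17), Samm50 (a mitochondrial outer membrane assembly factor, 3.06) and Lrtm1 (a leucine-rich repeat membrane protein, 2.92) were also among the 10 highest. All of these peaks had an FDR of 0 as listed, and those at BC034090, Cabp1, Adam11 and Lrtm1 had a GLI motif in the window.

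The highest coding peaks reached lower values and most were only partly exonic. Ankrd66, an ankyrin repeat gene, held the highest at rank 197 (log2 4.10), at chr17:43534500-43535499, with 60.3% of the peak inside exons. Btd, encoding biotinidase, held the next at rank 198 (log2 4.09), at chr14:31661700-31662799, with 23.3% of the peak inside exons. At Itga8, encoding integrin alpha 8, the summit fell in exon 21 of 30, an exon of 93 bp, and 13.3% of the peak was exonic (rank 409, log2 3.79). Myof, encoding the membrane repair protein myoferlin, had its summit in exon 48 of 53 (log2 3.26, 31.6% exonic). Kmt2e, of the lysine methyltransferase family, had a peak wholly inside its last exon (log2 3.14). Slc2a5 (a fructose transporter, 3.09), Otp (a homeodomain factor, 2.92), Wif1 (a secreted WNT inhibitor, 2.92), Runx3 (a runt factor, 2.91) and 2210408I21Rik (2.90) followed. In this group the peaks of Otp and Runx3 were also 100% exonic and lay in last exons, 170 and 92 bp before the last coding base.

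Peaks were also grouped by how much of their length was exon, with groups formed after the values were seen and no test made. Among coding peaks, 46 had at least 80% of their length in exons, and 10 of these (21.7%) had an FDR under 0.05. Of the other 28 coding peaks, 11 (39.3%) passed. Among 3′ UTR peaks, 31 of 96 peaks with at least 80% in exons passed (32.3%), against 7 of 8 others (87.5%). Stronger peaks were also longer: coding peaks under the threshold had a median length of 450 bp and the rest 150 bp, and 3′ UTR peaks 425 and 200 bp. By exon share, median lengths were 200 and 250 bp in coding exons and 250 and 550 bp in 3′ UTRs, and the part of length in these shares was not tested. The whole peak lay in exons at 38 coding and 92 3′ UTR peaks.

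Many coding peaks lay in long last exons. Of the 74 coding summits, 37 lay in the last exon of the transcript and 37 in an internal exon, while 17.7% of coding bases over 3 kb from a TSS belong to last exons, a description with no test. The exon holding the summit had a median length of 872.5 bp, and the median exon length over such coding bases was 181 bp. Last exons with a summit were long (median 2027 bp) and 24 of the 37 summits lay in the final 500 bp before the last coding base. The peaks there had a median GC content of 65.3% in the window around the summit, 33 of 37 were CpG-rich, as defined below, and the median distance to the nearest other listed peak was 2525 bp. Peaks in internal exons had a median exon length of 185 bp, a median GC content of 55.9%, 19 of 37 CpG-rich summits and a median distance of 17235 bp to the nearest other peak. Their shares with an FDR under 0.05 were close, at 11 of 37 and 10 of 37, and a GLI motif was present at 4 and 11.

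**Figure D2:**
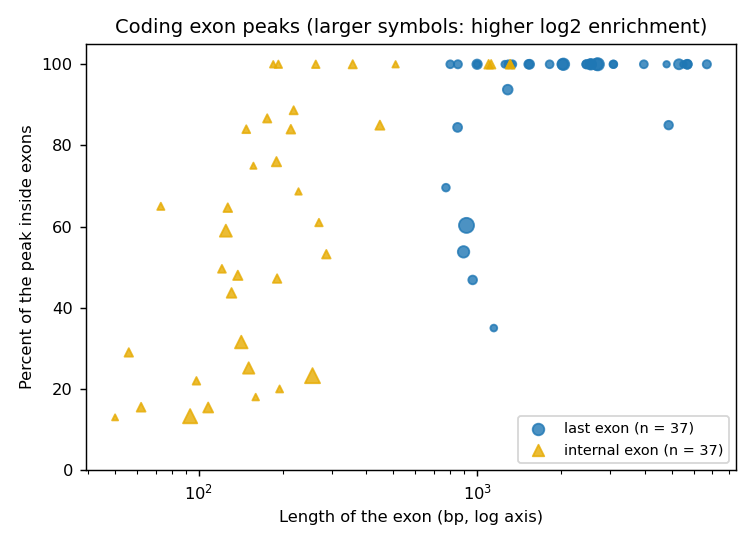
Each point is 1 of the 74 coding exon peaks, by the length of its exon in bp (x axis, log scale) and the percent of the peak inside exons (y axis); circles are last exons, triangles internal exons, and larger symbols have a higher log2 fold enrichment. Last exons lie to the right with most peaks at 100%, and the strongest peaks of internal exons, Btd and Itga8, lie at 23.3% and 13.3%.

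The 3′ UTR summits were spread along the UTR. All 104 lay in the last exon, 10 of them in single-exon transcripts. The median summit was 897.5 bp past the last coding base and 747.5 bp before the transcript end, 47.4% of the way between them (quartiles 25.4 and 78.2%). Within 300 bp past the last coding base there were 22 summits, and within 300 bp of the transcript end there were 20. Cabp1 lay 3 bp from the annotated end and Fam43a, of unknown function, at the end itself. Whether listed positions count from 0 or 1 is not given in the sources used here, and 1 base further on the Fam43a summit would lie outside the exon, so the place of these peaks depends on where the transcript was annotated to stop.

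**Figure D3:**
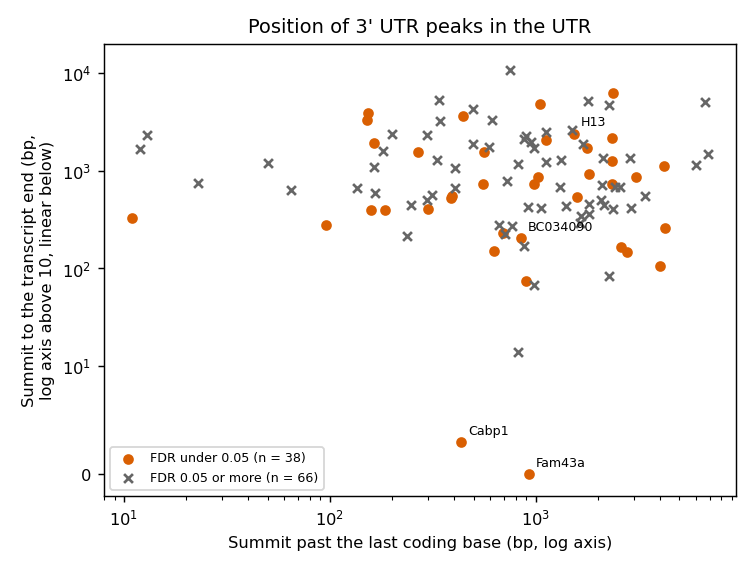
Each symbol is 1 of the 104 3′ UTR peaks, by the distance of the summit past the last coding base (x axis, bp, log scale) and to the transcript end (y axis, bp, log scale above 10 and linear below). Circles are the 38 peaks with an FDR under 0.05 and crosses the other 66; both are found throughout, and Cabp1 and Fam43a sit at the bottom, at 3 and 0 bp from the end.

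The 8 summits in 5′ UTRs belonged to transcripts whose 5′ UTR exon lay more than 3 kb from the start. The highest was in A930004D18Rik (rank 1442, log2 3.17). Pura, which encodes a nucleic acid-binding protein, followed on chromosome 18 (rank 4070, log2 2.63, FDR 0.00417) and Ece1, encoding the endothelin-converting enzyme, on chromosome 4 (log2 2.33, FDR 0.0374). Zfhx3 and Hoxc9, both homeobox genes, had values of 2.07 and 2.06 and FDRs of 0.251 and 0.438. With 8 peaks the class allowed no comparison of its own.

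Peak density per base differed between the exonic classes. Coding sequence over 3 kb from a TSS amounted to 25.7 Mb and held 2.88 listed peaks per Mb, which is 0.759 times the intronic density of 3.79 per Mb. The 3′ UTRs amounted to 26.4 Mb and held 3.94 per Mb, 1.04 times the intronic density. Intergenic sequence held 3.42 per Mb. The 5′ UTR exons this far from a start covered 0.347 Mb and their 8 peaks gave 23.1 per Mb. These densities are descriptions with no test. They count every known base of a class, with no allowance for repeats in which reads cannot be placed.

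Exonic and intronic peaks differed in CpG content. A summit was called CpG-rich where a stretch of 200 bp within 250 bp of it had at least 0.5 of its bases as G or C and more than 0.6 of the CpG dinucleotides its composition predicts, the usual criteria for the CpG islands of promoters. Such summits made up 52 of 74 coding peaks (70.3%, interval 59.1 to 79.5%), 39 of 104 3′ UTR peaks (37.5%, interval 28.8 to 47.1%) and 468 of 3090 intronic peaks (15.1%, interval 13.9 to 16.5%). Coding peaks exceeded intronic peaks (two-sided Fisher's exact test, odds ratio 13.2, adjusted p = 1.85e-24), as did 3′ UTR peaks (odds ratio 3.36, adjusted p = 3.39e-07), and coding exceeded 3′ UTR peaks (odds ratio 3.94, adjusted p = 8.94e-05). Against intergenic peaks, of which 23.7% were CpG-rich, the odds ratios were 7.59 for coding and 1.93 for 3′ UTR peaks, both still past the threshold. Exonic sequence is itself richer in CpG. Windows centred on all coding bases over 3 kb from a TSS, sampled every 100 bases, were CpG-rich in 18.5%, those on 3′ UTR bases in 4.77% and those on intronic bases in 2.77%. Median GC content in the windows was 59.9% at coding peaks, 51.5% at 3′ UTR peaks and 48.3% at intronic peaks, against 48.5, 43.1 and 42.5% over all such bases.

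The CpG-rich share also moved with distance from the TSS, described here without a test. Between 3 and 10 kb from a TSS they made up 32 of 37 coding, 26 of 55 3′ UTR and 130 of 486 intronic peaks (86.5, 47.3 and 26.7%). Beyond 10 kb they made up 20 of 37, 13 of 49 and 338 of 2604 (54.1, 26.5 and 13%). The coding peaks were also nearer to a TSS than the intronic ones, at a median of 10048 bp against 43018.5 bp, and the 3′ UTR peaks at 8549 bp. Among peaks with an FDR under 0.05 the shares were 61.9, 31.6 and 17.7%, and with these smaller numbers the 3′ UTR against intron (odds ratio 2.15, adjusted p = 0.146) and coding against 3′ UTR (odds ratio 3.52, adjusted p = 0.0968) differences no longer passed Fisher's exact test. The latter also missed the threshold of that exact test beyond 10 kb (odds ratio 3.26, adjusted p = 0.0582).

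**Figure D4:**
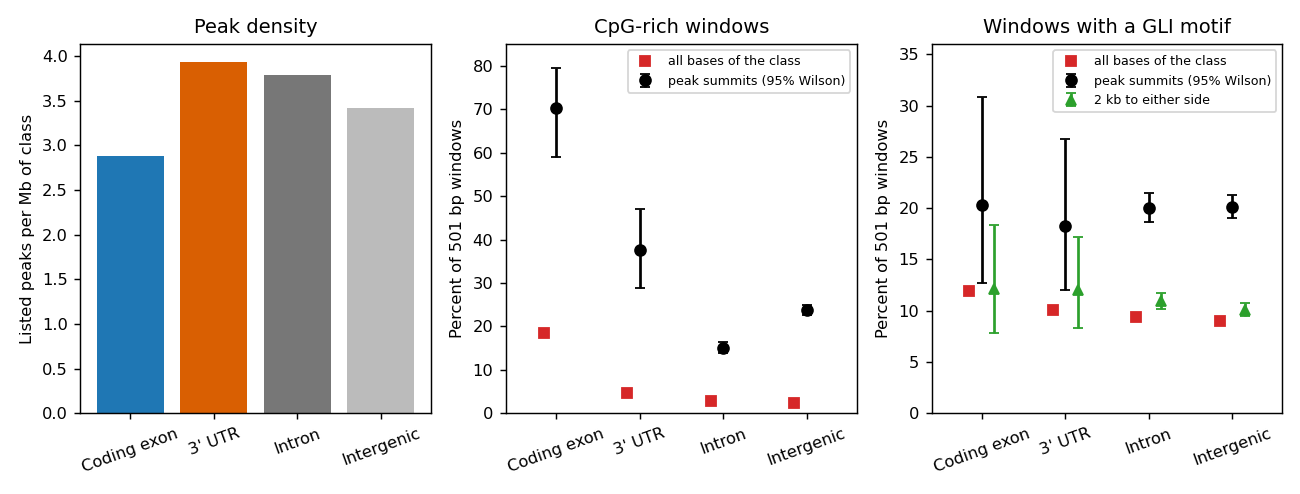
Left, listed peaks per Mb of sequence of each class over 3 kb from a TSS; middle and right, the percent of windows reaching 250 bp to either side that were CpG-rich or held a GLI motif. Black circles are peak summits with 95% Wilson intervals, red squares all bases of the class and green triangles windows 2 kb to either side of the summits; CpG-rich summits stand at 70.3% in coding exons and 15.1% in introns, while motif shares lie between 18.3 and 20.3% in coding exons, 3′ UTRs and introns.

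With at most 1 mismatch allowed, the shares of exonic and intronic summits with a GLI motif were not separable. The motif was present at 15 of 74 coding peaks (20.3%, interval 12.7 to 30.8%), 19 of 104 3′ UTR peaks (18.3%, interval 12.0 to 26.8%) and 618 of 3090 intronic peaks (20%). Neither coding (odds ratio 1.02, adjusted p = 1) nor 3′ UTR peaks (odds ratio 0.894, adjusted p = 0.894) were separable from intronic peaks by Fisher's exact test. The exact consensus was present at 1 of 74 coding (1.35%), 1 of 104 3′ UTR (0.962%) and 96 of 3090 intronic peaks (3.11%), with odds ratios of 0.427 and 0.303 (exact tests, adjusted p = 0.847 and 0.508). Within 100 bp of the summit the coding odds ratio for a match was 0.458 (exact test, adjusted p = 0.255). Against windows 2 kb to either side, coding peaks had 20.3 against 12.2% (exact test, odds ratio 1.84, adjusted p = 0.242) and 3′ UTR peaks 18.3 against 12.0% (odds ratio 1.64, adjusted p = 0.288). Intronic peaks had 20 against 11.0% (exact test, odds ratio 2.03, adjusted p = 1.37e-29). With a TSS limit of 1 kb the ratios against these windows were 1.34 for coding, 1.26 for 3′ UTR and 2.02 for intronic peaks, and the first 2 again did not pass. Over all bases of each class, a match lay in 12.0% of coding, 10.1% of 3′ UTR and 9.38% of intronic windows.

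The 35 exonic peaks with a motif held 49 matches at 48 positions, since the windows of both Adam11 peaks held the same 3′ UTR match, counted for each. The match itself lay in a 3′ UTR 29 times, in an intron 10 times, in a coding exon 7 times, between genes 2 times and in a 5′ UTR 1 time. It read 5′ to 3′ along the strand of the gene in 20 of 49. Within 50 bp of a summit there were 13 matches and from 150 to 250 bp away there were 16, a ratio of densities per position of 1.56 (one-sided exact binomial test, p = 0.157, adjusted p = 0.288). Around intronic summits the ratio was 2.21, from 236 and 205 matches. Among the 21 coding peaks with an FDR under 0.05, 5 had a motif (23.8%), and among the 53 others 10 had one (18.9%). In 3′ UTRs it was 10 of 38 (26.3%) and 9 of 66 (13.6%).

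**Figure D5:**
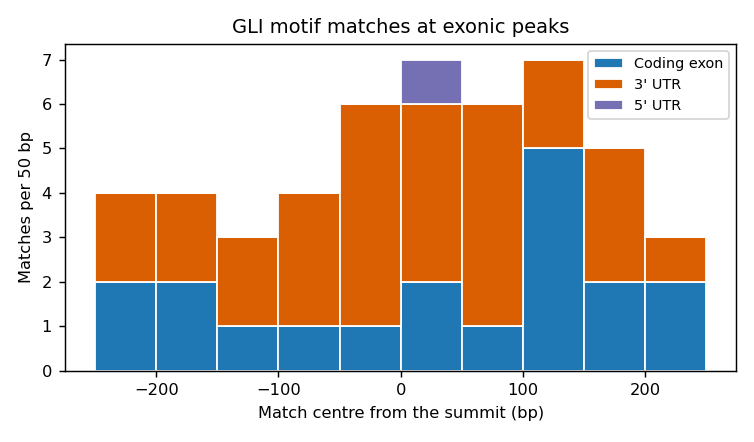
Number of GLI motif matches per 50 bp (y axis) by the distance of the match centre from the peak summit in bp (x axis), stacked by the class of the exonic peak. The 13 matches within 50 bp of a summit lie in the central bars, and 6 of the 49 matches come from the single Chst10 peak.

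A repeated sequence gave the most matches at any exonic peak. Chst10 encodes a sulfotransferase of the HNK-1 carbohydrate epitope, and its 3′ UTR peak (rank 4429, log2 2.58, FDR 0.00704) had its summit 153 bp past the last coding base. The window held 6 matches over 321 bp, all GACCACACA on the strand opposite to the gene. Their spacing ran from 39 to 117 bp, and 5 of 5 spacings were multiples of 39 bp, so the matches belonged to a tandem repeat. The 29 bases around the match took 4 different forms over the 6 copies, shown here in the order of their first copy along the chromosome, again on the plus strand with the match in capitals.
Copy at chr1:38867576-38867604: gagccctgtgGACCACACAgcaagtgcag
Copy at chr1:38867732-38867760: gagccctgtgGACCACACAgcaagtacag
Copy at chr1:38867849-38867877: gagccctgtgGACCACACAgtaagtacag
Copy at chr1:38867888-38867916: gagccctgtgGACCACACAgcaagtatgg

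The C7A form was the commonest among the exonic peaks with 13 matches in 8 peaks, 6 of them at Chst10, and A2C followed with 7 matches in 7 peaks. At other exonic peaks the number of matches was at most 2. Without Chst10 the central density ratio was 1.51, from 11 and 14 matches.

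Some genes held several exonic peaks. In 25 genes there were 2 or more exonic members, 54 in all, and in 23 of these genes they shared 1 exon. Prdm8, a PR domain factor, held 4 over 3240 bp with log2 values from 2.07 to 2.23, none with an FDR under 0.05. Foxc1, a forkhead factor of mesoderm and skeletal development, held 3 over 1225 bp in its 3′ UTR (1.94 to 2.66, 1 with an FDR under 0.05). Zfp503, a zinc finger repressor, held 3 over 2120 bp (2.27 to 2.69, 2 under 0.05). Adam11, H13 and Mical2, the last encoding an actin-oxidising enzyme, each held a pair in which both peaks passed. Pairs in which neither passed were at Barhl2, Cxxc4, Hoxc9, Mturn, Otx1, Prdm13, Sox11, Tbr1, Tchh and Fto, the last with its summits in 2 exons 142210 bp apart. The other pairs, with 1 peak passing, were at A930004D18Rik, Chst10, Nkx6-1, Otp, Pura, Slc9a3r2, Sorbs3, Sp9 and Zfp771.

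Another listed peak of any class lay within 10 kb of 37 of 74 coding (50%), 58 of 104 3′ UTR (55.8%) and 1372 of 3090 intronic summits (44.4%). The 3′ UTR share did not pass after adjustment (Fisher's exact test, odds ratio 1.58, p = 0.027, adjusted p = 0.0855), nor did the coding share (odds ratio 1.25, adjusted p = 0.506). Both passed with the first peak by position of each gene, at 2.80 and 2.36 (exact tests, adjusted p = 1.6e-05 and 0.00304), and with the best-ranked peak of each gene, at 2.33 and 1.97, choices made after seeing the data. Keeping 1 peak per gene removes peaks with a neighbour in the same gene, while distances still ran to every listed peak. That can itself lower the intronic share, so no conclusion is drawn from these ratios. Both exonic shares also passed with a TSS limit of 1 kb, at 1.81 and 2.00, and the 3′ UTR share passed within 5 kb, at 1.82. Distance from the TSS moved with it. Between 3 and 10 kb the shares were 70.3, 74.5 and 69.3%, and beyond 10 kb they were 29.7, 34.7 and 39.7%, where both exonic shares were below the intronic one but not separable from it (exact tests, odds ratios 0.641 and 0.805, adjusted p = 0.38 and 0.755).

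Some coding summits lay at start sites of transcripts that do not code for protein, which the 3 kb rule had left in. A TSS of such a transcript lay within 1 kb of 8 of 74 coding (10.8%), 3 of 104 3′ UTR (2.88%) and 132 of 3090 intronic summits (4.27%). The coding share exceeded the intronic share before adjustment and missed the threshold after it (Fisher's exact test, odds ratio 2.72, p = 0.0153, adjusted p = 0.0582). The odds ratio was 3.98 with a limit of 500 bp (exact test, adjusted p = 0.0134), 1.30 against intergenic peaks, of which 8.51% lay within 1 kb of such a start (adjusted p = 0.736), and 0.994 among peaks with an FDR under 0.05. These coding peaks, named after their values were seen, had a median log2 fold enrichment of 2.13, against 2.18 over all coding peaks, and 1 of 8 (12.5%) had an FDR under 0.05, against 28.4%. It was the peak at Cpt1c (a carnitine palmitoyltransferase), with a log2 value of 2.37 at 33 bp from the antisense 6530437J22Rik. At Myb, encoding a transcription factor of blood progenitors, the summit lay 2 bp from the start of the antisense Gm26577 (log2 2.13, FDR 0.233). At Nos3, endothelial nitric oxide synthase, it lay 35 bp from that of the antisense Gm15587 (1.91, FDR 0.782). At Magi2, a scaffold protein gene, it lay 20 bp from Gm29254 on the same strand (2.28, FDR 0.0704). The others were at Kbtbd11, Prdm8 and, with 2 peaks, Cxxc4. In 3′ UTRs the peak at Pax2, a paired box factor of kidney and eye development, lay 354 bp from the antisense 1700039E22Rik (2.62, FDR 0.00455).

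Exonic peaks away from promoters were counted over lists of genes, beside the count over all 20696 autosomal protein-coding genes, of which 157 (0.759%) held at least 1. The lists were chosen with earlier results known and no test was made. Neither the lists nor the count over all genes was limited to genes with exonic sequence over 3 kb from a TSS. Of 49 autosomal genes listed as HH pathway members and limb targets, 3 (6.12%) had any, with 5 peaks in all. These were Foxc1, Pax1, a paired box factor of the axial skeleton (log2 2.06), and Zic2, a zinc finger factor that acts with GLI proteins (2.23). Of the 5, 1 had an FDR under 0.05 and the median log2 fold enrichment was 2.16, against 62 of 186 (33.3%) and 2.17 over all exonic members and 42.7% over all autosomal peaks. The other listed genes, with Ptch1, Gli1 and Hhip among them, had none.

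Homeobox genes, recognised by the start of their symbol, held 10 peaks in 8 of 96 genes (8.33%, against 0.759% over all autosomal protein-coding genes). Hoxc9, Irx5, Meis1, Nkx6-1, Six6 and Zfhx3 were among them. Of these peaks 3 of 10 had an FDR under 0.05, near the 33.3% over all exonic members, against 42.7% over all autosomal peaks. Those at Nkx6-1 (log2 2.79) and Irx5 (2.53) passed, and the median over the 10 peaks was 2.22. Zinc finger genes found by symbol held 7 peaks in 4 of 475 genes (0.842%), namely Zfp503, Zfp697, Zfp771 and Zfpm1, 3 of 7 with an FDR under 0.05 and a median of 2.27. Signalling genes held 3 peaks in 3 of 142 genes (2.11%), namely Efnb2, an ephrin ligand, Fzd7, a WNT receptor, and Sema4a, a semaphorin, with 0 of 3 under 0.05 and a median of 1.95. Chromatin genes held 4 peaks in 4 of 92 genes (4.35%), namely Cbx8, Hdac9, Kdm6b and Kmt2e, with 1 of 4 under 0.05, at Kmt2e, and a median of 2.15. Matrix genes held 0 in 72 genes. Lists defined by symbol leave out homeobox genes such as Otp, Otx1 and Barhl2.

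The 3 kb limit fell among peaks of similar enrichment. Among those just inside it were Lbx1 (3060 bp, 2.21), Fam43a (3074 bp, 2.45), Lzts3 (3094 bp, 1.96) and Sox9 (3133 bp, 1.97). Just outside were Gm30191 (2982 bp, 2.03), Fezf1 (2940 bp, 2.18), Hand1 (2925 bp, 2.11), Pitx1 (2898 bp, 2.03) and Nkx2-3 (2867 bp, 2.45). Between 3 and 4 kb there were 24 exonic peaks, 5 with an FDR under 0.05, and between 2 and 3 kb there were 53, of which 14 passed. Of the 3333 autosomal exonic summits at any distance from a TSS, 5.58% lay beyond 3 kb. The share was 8.79% of 842 coding, 60.8% of 171 3′ UTR and 0.345% of 2320 5′ UTR summits.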

How the data were processed

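The deposited peak list gives, per the authors, an FDR (a q-value), the largest log2 fold enrichment over input, a T statistic (a score with no fixed range that sets the rank) and −log10 of the smallest Poisson p-value, which stops at 100. Reads were aligned with Bowtie2 2.2.5 to mm10 per the submitters' processing notes, and the study's methods name CisGenome for peak calling on both replicates. The list runs to an FDR of 1 and was treated as a joint call, which it does not state itself. Coordinates are as listed; whether they start at 0 or 1 is not given in the sources used here, so distances may be off by 1 bp, and 1 exonic peak would change its place. The 295 listed peaks not on autosomes were left out.

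Summits were placed on GENCODE M21 basic transcripts, with coding before 3′ UTR before 5′ UTR where transcripts differed (3 summits). Base composition and motifs were read from GRCm38.p6. Shares were compared by two-sided Fisher's exact tests in scipy 1.17.1, adjusted over 19 tests, with 95% Wilson intervals. The motif search and Fisher's exact tests were checked on simulated data. Placement was checked only at annotated coding bases, where the rule that puts coding first fixes the outcome. It was not checked for UTRs, introns or the 3 kb limit. The exonic peaks, gene lists and tests were chosen with earlier results of these data known. Named genes are the hosts of the 10 highest coding, 10 highest 3′ UTR and 5 highest 5′ UTR peaks, genes on the lists, genes with 2 or more members, members with an exact motif within 50 bp of the summit (0 were found) and the 5 members on either side of the 3 kb limit. Others, such as Otof, Pigv and hosts near noncoding starts, were named after their values were seen. A few members that meet this rule are not reported here by name.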

Additional observations from a re-analysis of the deposited data

How the results depend on the processing

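No analysis paired by replicate was possible because peaks, taken as 1 joint call, carry nothing by replicate. For the same reason no replicate was left out. Over 144 alternatives to 19 tests, 100 kept direction and side of the threshold, and 0 of the 27 changes of direction concerned a difference past the threshold. Odds ratios follow, and the causes were not tested. The number of exonic peaks was 328 with a TSS limit of 1 kb and 90 with 10 kb, and 62 and 42 of the 186 had an FDR under 0.05 and 0.01. The CpG-rich excess of coding over intronic peaks kept its call in 8 of 8 alternatives, the lowest odds ratio being 7.57. The CpG-rich excess lost its call for 3′ UTR against intron with FDR under 0.05 (2.15), and for coding against 3′ UTR with FDR under 0.05 (3.52) and a 10 kb limit (3.26).

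FDR shares of 3′ UTR against intron turned to 1.06 and 1.38 with limits of 5 and 10 kb. Motif shares between coding, 3′ UTR and intronic peaks, none of which passed in any alternative, turned for coding against intron to 0.887 (1 kb), 0.427 (exact consensus), 0.458 (window of 100 bp to either side), 0.65 (whole peak), 0.971 (within GC strata), and to 0.973 and 0.988 with 1 peak per gene, the best-ranked and the first by position. For 3′ UTR against intron they turned to 1.02 (10 kb), 1.21 (FDR under 0.05), 1.14 (100 bp) and 1.13 (whole peak), and for coding against 3′ UTR to 0.875, 0.400 and 0.575 (FDR under 0.05, 100 bp, whole peak).

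The share within 10 kb of another peak passed with a 1 kb TSS limit (coding 2.00, 3′ UTR 1.81 against intron), with the best-ranked peak per gene (1.97 and 2.33), with the first peak by position per gene (2.36 and 2.80) and, for 3′ UTR, within 5 kb (1.82). It turned for coding against intron to 0.905 (5 kb limit), 0.641 (10 kb) and 0.795 (FDR under 0.05), for 3′ UTR to 0.805 (10 kb) and 0.954 (FDR under 0.05), and for coding against 3′ UTR to 1.10 (1 kb) and 1.18 (neighbours within 50 kb). The share near noncoding starts passed for coding against intron at 2.43 (1 kb limit), 3.98 (within 500 bp), 2.77 (within 3 kb) and 3.19 (first peak per gene), and for coding against 3′ UTR at 10.8 (within 500 bp). It turned for coding to 0.994 (FDR under 0.05) and for 3′ UTR against intron to 1.23, 1.03 and 1.16 (1, 5 and 10 kb limits). With the best-ranked peak per gene and Fisher's exact test, the FDR shares of coding (0.376, adjusted p = 0.000702) and 3′ UTR peaks (0.575, adjusted p = 0.0485) passed as lower than intronic; that choice picks by enrichment, and with the first peak by position they were 0.667 and 0.906, neither past the threshold. The choices of 1 peak per gene and the omission of Chst10 were made after seeing the data. Keeping 1 peak per gene can itself lower the intronic share within 10 kb of another peak, so no conclusion is drawn from those ratios. With 74 coding and 104 3′ UTR peaks, many shares carry wide 95% intervals. Examples are 19.4 to 39.5% for coding peaks with an FDR under 0.05 and 12.0 to 26.8% for 3′ UTR peaks with a motif. Against windows 2 kb to either side, motif odds ratios ran from 1.34 to 2.14 for coding peaks without the exact consensus, which was in 1 of 74 peaks and 0 windows and gives no ratio, and from 1.26 to 2.11 for 3′ UTR peaks, with 0 of 5 alternatives past the threshold in each; smaller windows, whole peaks, GC strata and 1 peak per gene were not run there.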

Other observations

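On the X chromosome, which the autosomal comparisons left out, 289 peaks were listed and 128 of them lay over 3 kb from a protein-coding TSS. Of these, 37 had an intronic summit and 0 had an exonic one, while 54 exonic summits lay at any distance. Over the autosomes, the number of exonic peaks away from promoters ran from 1 on chromosome 9 to 18 on chromosome 2. Of the 186, 3 summits also lay inside another protein-coding gene and 16 inside a noncoding transcript. At 11 the summit lay within 10 bp of an exon edge.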
